A study of Mus musculus with 6 samples.

Results

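Dynein and cilium genes were examined in cultured mouse cortical neurons that received N40K, an N-terminal fragment of a protein of the U1 snRNP, the particle that recognises 5′ splice sites. The members were chosen by gene symbol alone, as every gene of the deposited table whose symbol begins with Dnah or Dnahc, Dnaic, Dnali1, Dnalc, Dync, Dynl, Ift, Bbs or Tekt in its numbered form. The symbol rule itself uses no score beyond a gene's presence in the table, but the gene group was proposed with earlier results of these data known, so its counts are a description. This gave 54 of 15705 scored genes: 16 axonemal dynein genes, 16 cytoplasmic dynein genes, 12 intraflagellar transport genes, 7 Bardet-Biedl genes and 3 tektin genes.

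Dyneins are motors that walk toward the minus end of microtubules. Axonemal dyneins form the arms that bend motile cilia and sperm flagella. Cytoplasmic dynein carries cargo back along axons and dendrites, and a second cytoplasmic dynein moves intraflagellar transport trains from the tip of the cilium to its base. The BBSome, built from Bardet-Biedl proteins, carries membrane receptors in and out of cilia, and tektins are filament proteins of the ciliary microtubule doublets. Cortical neurons bear a primary cilium, which lacks the dynein arms of motile cilia.

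The N40K group had 3 libraries from neurons exposed to lentivirus FCK1.3GW-N40K, which carries N40K behind a short CaMKII promoter. The control group had 3 libraries from neurons exposed to the vector FCK1.3GW, which carries EGFP behind that promoter, and both constructs hold a WPRE element. Both groups used C57BL/6 cortical neurons isolated at embryonic day 18, exposed at day 7 in culture and held with virus for 3 days. CaMKII promoters act mainly in excitatory neurons, whereas RNA came from the whole culture. Nothing in the labels ties the replicates to separate cultures, and the p-values therefore reflect library-to-library spread, which may be technical.

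The measurement was the Sd score, read as splicing deficiency, 1 value per gene and library. Such scores usually set unspliced against spliced reads of a gene, so a higher value is read here as less complete splicing, and more unspliced RNA cannot be told apart from less spliced RNA. It is not an expression level. The formula and the depth behind the scores were not given in the sources used here, so levels are compared between groups for a gene and not between genes. Of the 12 neuronal marker entries 11 had a score, as did all 6 for ependymal cells, which bear motile cilia, all 6 for astrocytes, 5 of 7 for the oligodendrocyte lineage and 4 of 6 for microglia; of these, 2 neuronal and 2 microglial markers rose, 1 oligodendrocyte-lineage marker fell, and 0 ependymal and 0 astrocyte markers passed the limma test used for the members. In that test 21.5% of all genes rose and 4.11% fell, and these small marker counts are not compared between cell types. A score shows only that a gene was scored and not how many cells of a type were present. Library medians over all genes averaged 0.0154 ± 0.000854 in N40K neurons and 0.0132 ± 0.000458 in control neurons (SD, n = 3 each; exact permutation p = 0.1, 2-sided, the smallest that the 20 assignments allow).

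With N40K, scores rose for 11 and fell for 4 of the 54 (limma on log2(score + 0.01), Benjamini-Hochberg adjusted p under 0.05 over all 15705 genes), and 39 did not pass. The rises were in Dnahc11, Dnahc12, Dync2h1, Dync1li1, Ift52, Ift57, Ift88, Ift140, Bbs2, Bbs5 and Bbs7, and the falls in Dync1i2, Tekt1, Tekt2 and Tekt5. Over all genes 21.5% rose and 4.11% fell, 25.6% in either direction, so the members' shares of 20.4% risen and 7.41% fallen lay near the background. For 22 members the lowest N40K score exceeded the highest control score, and for 6 the highest N40K score was under the lowest control score, or 40.7% and 11.1%, against 33.6% and 8.67% of all genes. The median log2 change was 0.09 for the members and 0.06 for all genes.

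**Figure D1:**
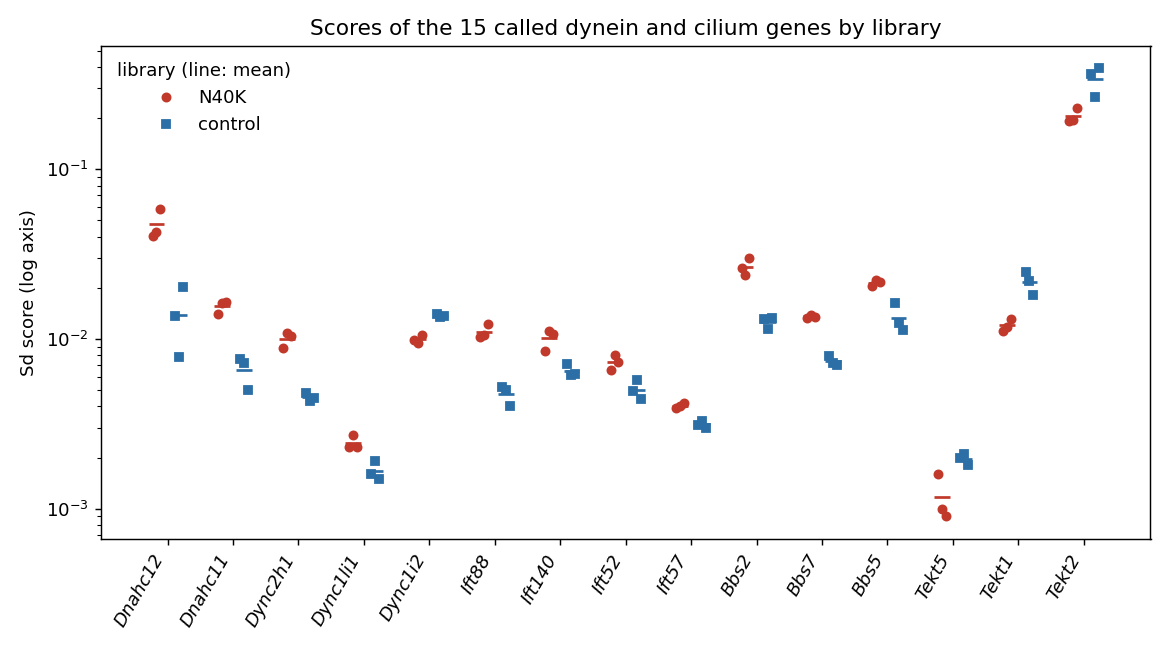
Sd scores (log axis) of the 15 genes that rose or fell, in each N40K library (circles) and each control library (squares), with a line at each group mean. In all 15 genes, which were called on these same scores, the groups do not overlap. The 11 genes with higher N40K scores include at least 1 from each class other than the tektins.

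The balance of rises and falls depended on scaling between libraries. Median centring, which subtracts 0.13 (log2) from every change, gave 7 rises and 12 falls among the members, beside 9.75% and 18.4% of all genes. Quantile normalization gave 8 rises and 10 falls, beside 12.9% and 12% of all genes. Centring each library on its median deviation from gene means, the median deviation scaling, also gave 8 and 10, beside 14.2% and 9.67%. Single libraries mattered as well: 7 members rose without N40K replicate 2 and 6 without control replicate 3. The falls numbered 1 without N40K replicate 2 or control replicate 1, and 2 without N40K replicate 3 or control replicate 3. The rises of Dnahc11, Dnahc12, Dync2h1, Ift88, Bbs2 and Bbs7 were called in every one of these fits and in the other alternatives run.

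**Figure D2:**
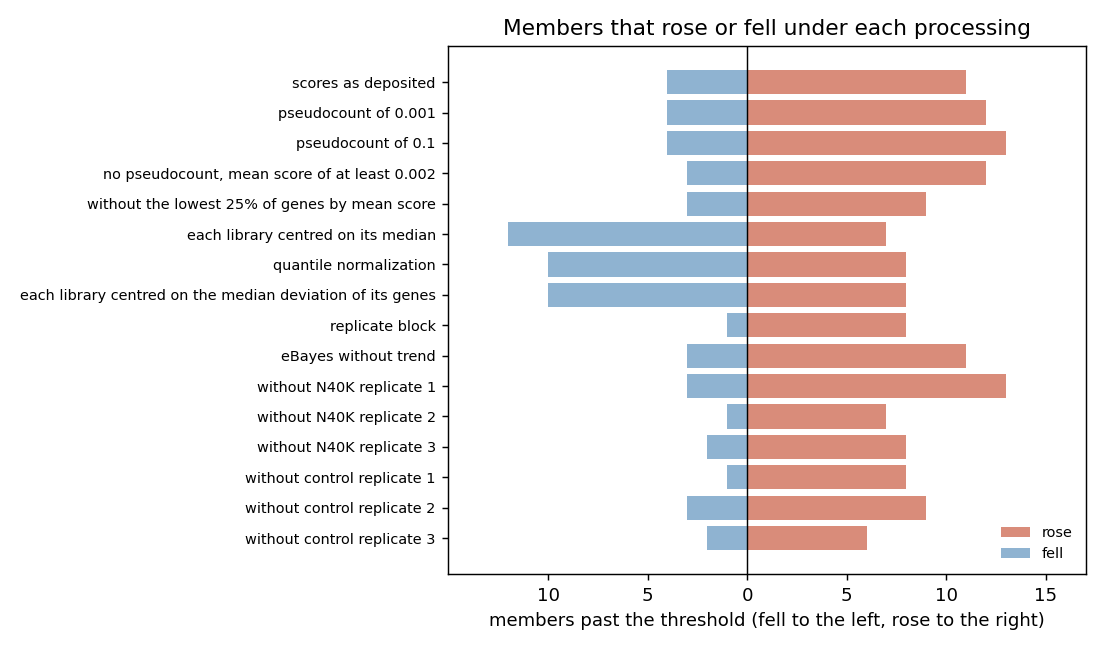
Number of the 54 genes past the threshold under each processing, with rises drawn to the right of 0 and falls to the left. Rises outnumber falls, 11 to 4, with scores as deposited, and falls outnumber rises, 12 to 7, after each library is centred on its median.

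Counts of calls by class are read beside the 21.5% of all genes that rose and the 4.11% that fell. Of the axonemal dynein genes 2 of 16 rose and 0 fell, of the cytoplasmic dynein genes 2 of 16 rose and 1 fell, and of the intraflagellar transport genes 4 of 12 rose and 0 fell. Of the Bardet-Biedl genes 3 of 7 rose and 0 fell, and of the tektin genes 0 of 3 rose and 3 fell. The shares risen were 12.5%, 12.5%, 33.3%, 42.9% and 0% in that order, in classes of few genes. The median log2 change was 0.09 for axonemal dynein, 0.0056 for cytoplasmic dynein, 0.09 for intraflagellar transport, 0.38 for Bardet-Biedl and -0.52 for tektin genes. After median centring these medians were -0.039 for axonemal dynein, -0.12 for cytoplasmic dynein, -0.036 for intraflagellar transport, 0.25 for Bardet-Biedl and -0.65 for tektin genes. Quantile normalization also turned the medians of axonemal dynein (-0.0094) and cytoplasmic dynein (-0.10) below 0, while under the median deviation scaling only that of cytoplasmic dynein lay below 0 beside the tektins (-0.060). Low scores change by more than log2(score + 0.01) shows, and classes differ in how many genes have mean scores under the 0.01 pseudocount. These were 2 of 16 axonemal dynein, 11 of 16 cytoplasmic dynein and 10 of 12 intraflagellar transport genes. The Bardet-Biedl class had 2 of 7 and the tektin class 1 of 3. Median ratios of means, in that order, were 1.18, 1.01, 1.25, 1.59 and 0.593. The log2 medians are therefore not compared in size between classes, and differences between the classes were not tested.

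**Figure D3:**
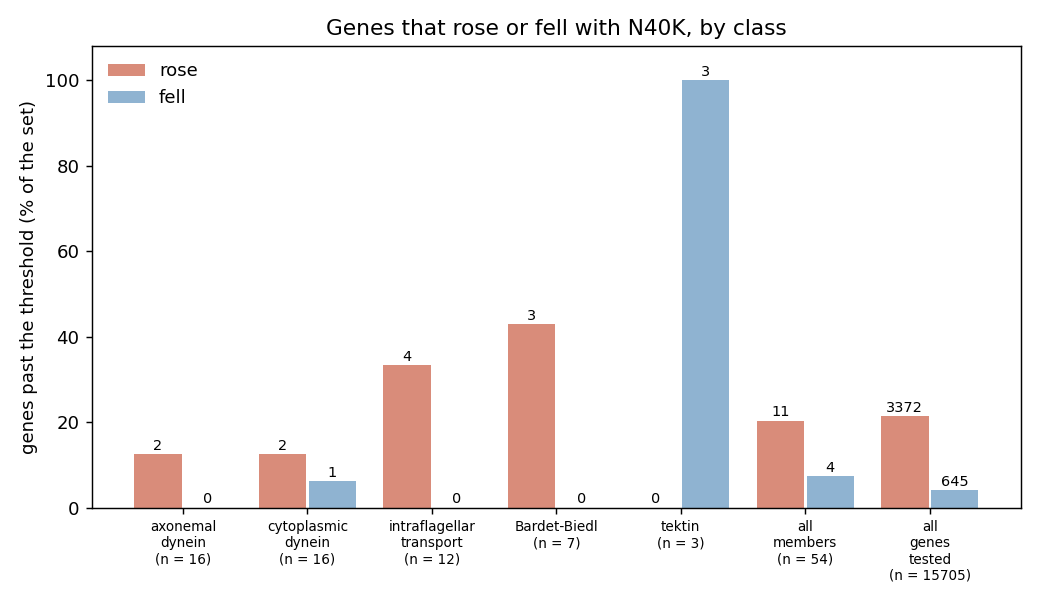
Share of each class, of all 54 members and of all 15705 genes that rose (left bar) or fell (right bar) with N40K at an adjusted p under 0.05, with the number of genes above each bar. The shares for all members, 20.4% and 7.41%, sit beside 21.5% and 4.11% for all genes.

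The axonemal heavy chains hold the motor domain of the dynein arms. Dnahc12, an inner arm heavy chain, had scores of 0.0404, 0.0428 and 0.0585 in N40K libraries 1 to 3, against 0.0136, 0.0078 and 0.0202 in control libraries 1 to 3. Every N40K score lay above every control score, although control scores themselves spread widely. The mean was 0.0472 ± 0.00983 in N40K neurons and 0.0139 ± 0.0062 in control neurons (SD, n = 3 each), a log2 change of 1.28 ± 0.22 (SE) and an adjusted p of 0.0124 by limma. This was the largest log2 change among the members and ranked 177 among all genes. Dnahc11, a heavy chain of the outer arm, had 0.0140, 0.0162 and 0.0164 in N40K libraries, against 0.0076, 0.0072 and 0.0050 in control libraries. The groups stood well apart, with a log2 change of 0.62 ± 0.08 and an adjusted p of 0.00532 (limma). Both calls held without any library and under every alternative processing, with adjusted p of at most 0.0428 for Dnahc12 and 0.0362 for Dnahc11.

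The other 10 scored heavy chains did not pass. Dnahc3, Dnahc1 and Dnahc17 had N40K scores above all control scores, with log2 changes of 0.33, 0.29 and 0.20 and adjusted p of 0.143, 0.084 and 0.0793 (limma). Dnahc17 had 0.0976, 0.1051 and 0.0999 in N40K libraries and 0.0880, 0.0844 and 0.0862 in control libraries, and it passed when the trend of variance with level was left out of the model (adjusted p = 0.0216). Dnahc1 and Dnahc3 encode inner arm heavy chains, and Dnahc17 an outer arm heavy chain known from sperm flagella. Dnahc5, the outer arm heavy chain often mutated in human primary ciliary dyskinesia, had means of 0.0034 ± 0.0011 in N40K neurons and 0.00277 ± 0.000379 in control neurons, with groups that overlap. Dnahc2, Dnahc6 and Dnahc7b had lower means with N40K, with ratios of 0.889, 0.805 and 0.785, and did not pass with scores as deposited. Dnahc7b was called as fallen after median centring (adjusted p = 0.0192) and quantile normalization (0.0228), and not under the median deviation scaling (0.055). Dnahc8, Dnahc9 and Dnahc10 had ratios of 1.09, 1.18 and 1.02, and their groups overlapped. The intermediate chains Dnaic1 and Dnaic2, which anchor outer arms, and the light chains Dnalc1 and Dnalc4 had ratios between 0.902 and 1.24, all with overlapping groups. The annotated coding sequence of Dnah7b (the current symbol of Dnahc7b) is 95.9% identical to that of Dnah7a and 96.2% to that of Dnah7c, so its score is uncertain where reads were shared.

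**Figure D4:**
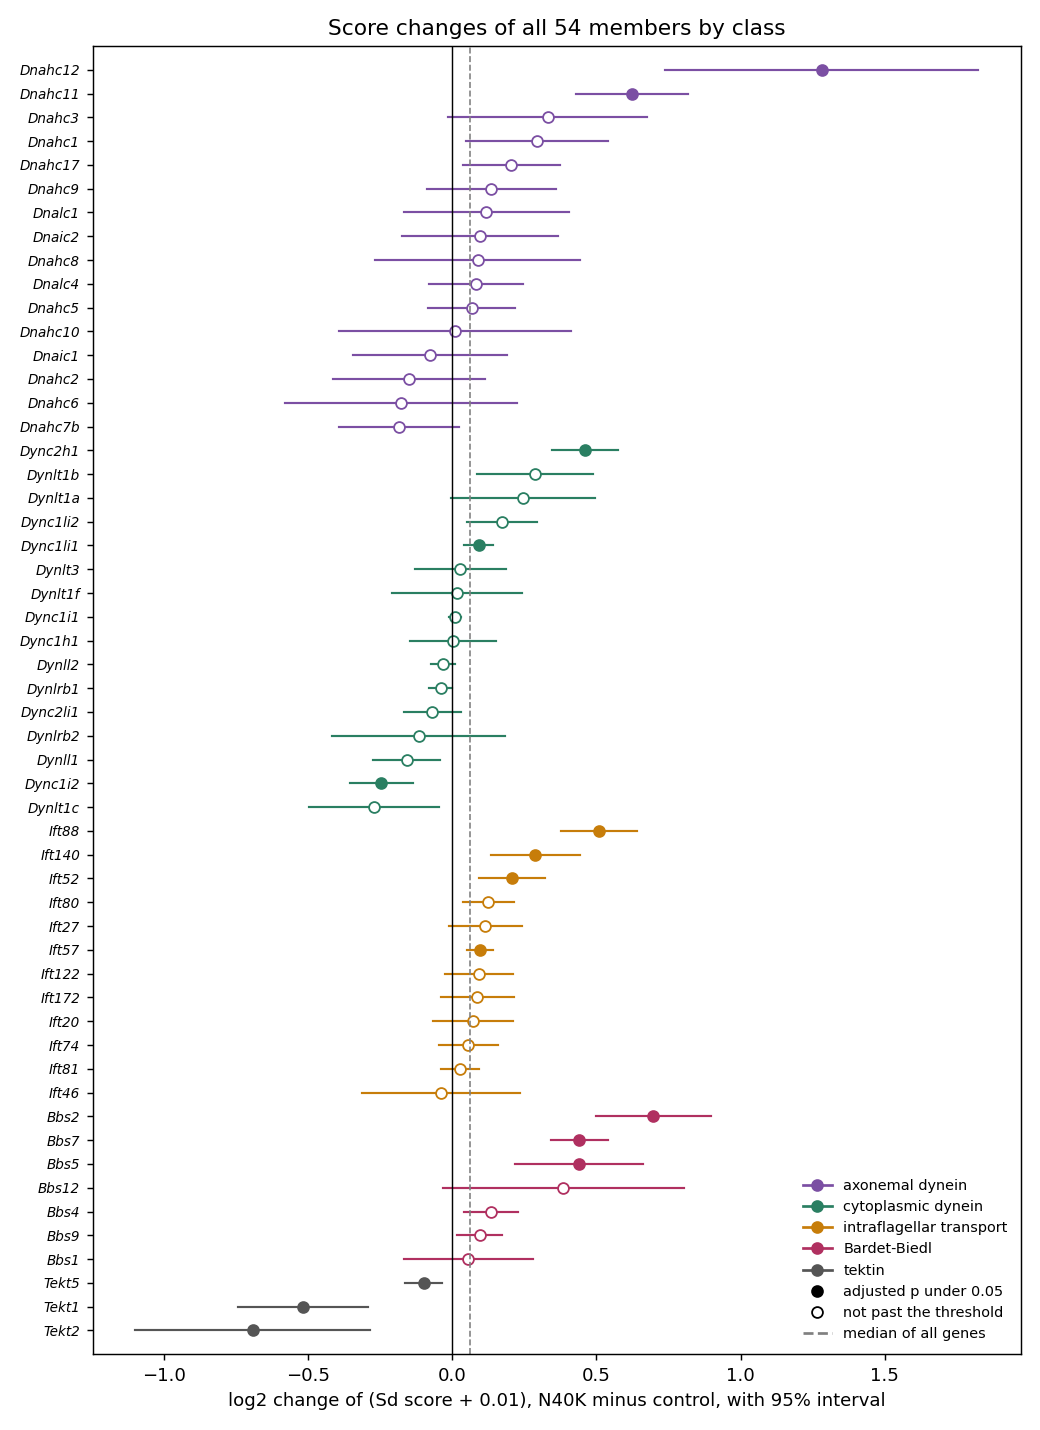
Log2 change of (Sd score + 0.01), N40K minus control, with its 95% interval from limma for each of the 54 genes, ordered by class and size; filled points passed the adjusted threshold and the dashed line marks the median of all genes, 0.06. With scores as deposited the 3 tektin genes lie below 0 and the 7 Bardet-Biedl genes above it, of which Bbs1 and Bbs9 turn below 0 after median centring. Among all 15705 genes, 10527 had a log2 change above 0.

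In the cytoplasmic dyneins the heavy chains of the ciliary and the axonal motor gave different values. Dync2h1, the motor that returns intraflagellar transport trains to the base of the cilium, had scores of 0.0088, 0.0108 and 0.0104 in N40K libraries, against 0.0048, 0.0043 and 0.0045 in control libraries. The groups were separated by more than either group's own range, with a ratio of means of 2.21, a log2 change of 0.46 ± 0.05 and an adjusted p of 0.00342 (limma). Dync1h1, the heavy chain of the axonal transport motor, had 0.0452, 0.0443 and 0.0460 in N40K libraries and 0.0438, 0.0451 and 0.0464 in control libraries. These groups overlapped throughout, and the log2 change was 0.00 with a 95% interval of -0.15 to 0.15 (adjusted p = 0.991). The difference between the genes was not tested. Dync2li1, the light intermediate chain that pairs with Dync2h1, had means of 0.00367 ± 0.000666 in N40K neurons and 0.00433 ± 0.000351 in control neurons and did not pass with scores as deposited (adjusted p = 0.271). It was called as fallen after median centring (0.00909), quantile normalization (0.0194) and the median deviation scaling (0.0303).

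Of the accessory chains of the axonal motor 1 rose and 1 fell. Dync1i2, the widely expressed intermediate chain, fell: it had 0.0099, 0.0094 and 0.0106 in N40K libraries, against 0.0140, 0.0135 and 0.0136 in control libraries. Control scores were tightly grouped and all above the N40K scores, with a log2 change of -0.25 ± 0.04 and an adjusted p of 0.0138 (limma). The call ended without N40K replicate 2 or control replicate 1 (highest adjusted p = 0.0519). The neuronal intermediate chain Dync1i1 had scores of 0.0003 to 0.0004 in N40K libraries and 0.0002 to 0.0003 in control libraries, where the last deposited decimal is 33.3% of its mean score, so no change could be resolved. Dync1li1, a light intermediate chain, had 0.0023, 0.0027 and 0.0023 in N40K libraries, against 0.0016, 0.0019 and 0.0015 in control libraries, a ratio of 1.46 (adjusted p = 0.025). That call ended without N40K replicate 2, control replicate 1 or control replicate 3 (highest adjusted p = 0.0864), and centring each library on its median turned its log2 change to -0.039. The Dync1li1 call also ended after quantile normalization (adjusted p = 0.333), under the median deviation scaling (0.558) and without the trend of variance with level (0.0885). The last deposited decimal is 4.88% of the mean score of Dync1li1, 0.00205. Its partner Dync1li2 had a ratio of 1.31 and narrowly missed the threshold (0.0509).

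Of the 9 light chain genes 0 passed. Dynll1, which encodes the LC8 light chain found in many complexes, had lower scores in every N40K library (0.0021, 0.0032 and 0.0026) than in control libraries (0.0049, 0.0036 and 0.0038), with an adjusted p of 0.0584 (limma). Dynll2, Dynlrb1, Dynlrb2 and Dynlt3 had ratios of 0.899, 0.825, 0.773 and 1.08, with overlapping groups. After each library was centred on its median, 7 cytoplasmic dynein genes were called as fallen and 1 as risen, beside 18.4% and 9.75% of all genes. The 7 were Dync1i1, Dync1i2, Dync2li1, Dynll1, Dynll2, Dynlrb1 and Dynlt1c. Quantile normalization gave 6 falls, without Dync1i1, and 1 rise, and the rise was Dync2h1 in both cases. Dync1i1, Dynll2 and Dynlrb1 have mean scores of 0.0003, 0.0028 and 0.0017, under the pseudocount. Their log2 changes with scores as deposited were 0.0093, -0.034 and -0.041, smaller in size than the 0.13 that median centring subtracts. The call of Dync1i1, with a ratio of 1.25, is therefore not read as a resolved fall.

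The Tctex-type light chain is encoded by a cluster of near-identical genes on chromosome 17, and their coding sequences show how little separates them. The first 60 of 342 coding bases are given for each copy 5′ to 3′, from GENCODE M21 transcripts (GRCm38) matched by symbol, with a capital at the base that is not the same in all 4 copies.
Dynlt1a: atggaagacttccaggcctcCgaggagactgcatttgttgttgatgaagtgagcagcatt
Dynlt1b: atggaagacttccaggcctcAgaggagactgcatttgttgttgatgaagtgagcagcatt
Dynlt1c: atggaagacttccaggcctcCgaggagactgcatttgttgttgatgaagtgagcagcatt
Dynlt1f: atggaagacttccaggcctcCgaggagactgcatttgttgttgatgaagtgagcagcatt
This is the only differing position in the 342 bases: Dynlt1a, Dynlt1c and Dynlt1f were identical over the coding sequence, and Dynlt1b was 99.7% identical to each.

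The deposited scores of the copies nevertheless differed. Dynlt1b had 0.0215, 0.0249 and 0.0273 in N40K libraries, against 0.0192, 0.0170 and 0.0186 in control libraries. Dynlt1a had 0.0087, 0.0093 and 0.0140 in N40K libraries, against 0.0080, 0.0073 and 0.0067 in control libraries, and both copies were higher in every N40K library. Dynlt1c had 0.0131, 0.0138 and 0.0168 in N40K libraries, against 0.0191, 0.0175 and 0.0224 in control libraries, lower in each. Dynlt1f had 0.0109, 0.0155 and 0.0137 in N40K libraries, against 0.0127, 0.0118 and 0.0147 in control libraries, with full overlap. None passed with scores as deposited (adjusted p = 0.0512 for Dynlt1b, 0.137 for Dynlt1a, 0.0817 for Dynlt1c and 0.925 for Dynlt1f, limma). Dynlt1b passed with a pseudocount of 0.001 or none, without the trend of variance with level, and without N40K replicate 1. It passed under no other alternative. Dynlt1c fell under all 3 scalings between libraries. Reads from the coding sequence alone cannot separate Dynlt1a, Dynlt1c and Dynlt1f, so these scores are uncertain.

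**Figure D5:**
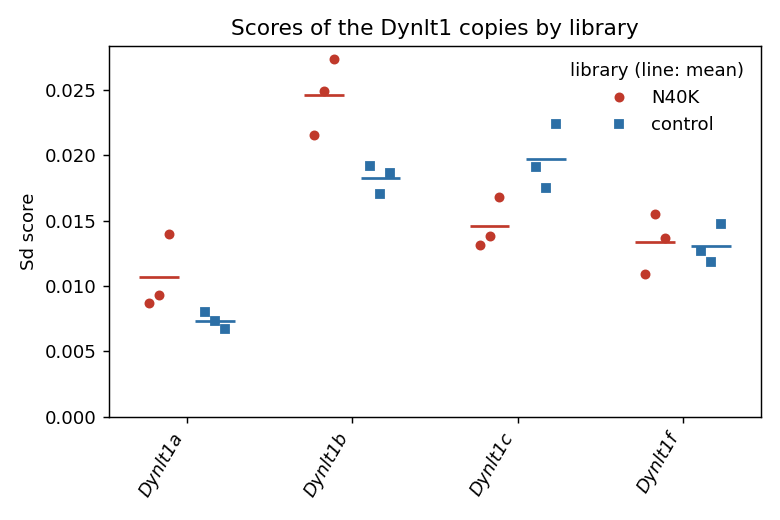
Sd scores of the 4 Dynlt1 copies in each N40K library (circles) and each control library (squares), with a line at each group mean. Dynlt1a and Dynlt1b are higher in N40K libraries, Dynlt1c is lower and Dynlt1f overlaps.

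Intraflagellar transport trains are built from complexes A and B. In complex B, Ift88, the subunit altered in a mouse model of polycystic kidney disease, had scores of 0.0102, 0.0105 and 0.0122 in N40K libraries, against 0.0052, 0.0050 and 0.0040 in control libraries. The lowest N40K score was well above the highest control score, with a ratio of means of 2.32, a log2 change of 0.51 ± 0.05 and an adjusted p of 0.00379 (limma). Ift52, another core subunit, had 0.0066, 0.0080 and 0.0073 in N40K libraries, against 0.0049, 0.0057 and 0.0044 in control libraries (ratio 1.46, adjusted p = 0.0267). Ift57, a peripheral subunit, had 0.0039, 0.0040 and 0.0042 in N40K libraries, against 0.0031, 0.0033 and 0.0030 in control libraries (ratio 1.29, adjusted p = 0.0167). In complex A, Ift140 had 0.0085, 0.0112 and 0.0107 in N40K libraries, against 0.0071, 0.0061 and 0.0062 in control libraries (ratio 1.57, adjusted p = 0.0229). In all 4 genes, which were called on these same scores, the groups did not overlap.

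Of these, the Ift88 call held under every alternative. The Ift140 call ended without any library other than N40K replicate 1 (highest adjusted p = 0.0803), the Ift52 call without N40K replicate 2 or 3 or control replicate 1 or 3 (0.0859), and the Ift57 call without N40K replicate 2 or control replicate 1 or 3 (0.0659). The Ift57 call also ended without the trend of variance with level (adjusted p = 0.057). The remaining 8 genes did not pass. Ift80 had N40K scores above all control scores (ratio 1.45, adjusted p = 0.0547), and Ift122, of complex A, did too (1.18, 0.223). Ift20, which also serves at the Golgi, had 0.0380, 0.0379 and 0.0379 in N40K libraries, against 0.0361, 0.0350 and 0.0358 in control libraries, a small and non-overlapping difference (ratio 1.06, adjusted p = 0.412). Ift27, Ift172, Ift74 and Ift81 had ratios of 1.24, 1.12, 1.26 and 1.08 with overlapping groups, and Ift46 had 0.937. With libraries centred on their medians 1 gene of this class was called as risen, Ift88, and 1 as fallen, Ift81, beside 9.75% and 18.4% of all genes. Ift81 has a mean score of 0.0029, under the pseudocount, and a log2 change of 0.026 with scores as deposited. That change is smaller in size than the 0.13 that median centring subtracts. The call of Ift81, with a ratio above 1, is therefore not read as a resolved fall. Quantile normalization gave 2 rises, Ift88 and Ift140, and 0 falls, beside 12.9% and 12% of all genes.

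With scores as deposited all 7 Bardet-Biedl genes had log2 changes above 0, as did 10527 of all 15705 genes. After median centring Bbs1 (-0.075) and Bbs9 (-0.036) lay below 0. Bbs1 also lay below 0 after quantile normalization (-0.082) and the median deviation scaling (-0.010). Bbs2, a BBSome subunit, had scores of 0.0263, 0.0239 and 0.0299 in N40K libraries, against 0.0131, 0.0114 and 0.0133 in control libraries, with a log2 change of 0.70 ± 0.08 and an adjusted p of 0.00462 (limma). Bbs7, which pairs with Bbs2 in the BBSome, had 0.0133, 0.0139 and 0.0135 in N40K libraries, against 0.0079, 0.0072 and 0.0070 in control libraries, with the smallest adjusted p of any member, 0.00292. Both groups of Bbs7 scores were narrow and far apart. Bbs5, a membrane-binding subunit, had 0.0204, 0.0223 and 0.0217 in N40K libraries, against 0.0162, 0.0124 and 0.0113 in control libraries (ratio 1.61, adjusted p = 0.02). Leaving out N40K replicate 2 or 3 or control replicate 2 or 3 ended the Bbs5 call (highest adjusted p = 0.0707). Bbs4 and Bbs9 also lay above all control scores without passing (ratios 1.23 and 1.59, adjusted p = 0.0526 and 0.0825), while Bbs1 overlapped (1.05). Bbs12, a chaperonin-like protein that helps assemble the BBSome, had 0.1711, 0.2620 and 0.2054 in N40K libraries and 0.1417, 0.1752 and 0.1597 in control libraries and did not pass (0.159). The 3 rises in this class were also called under all 3 scalings between libraries.

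The tektin genes moved the other way. Tekt1 had 0.0112, 0.0117 and 0.0131 in N40K libraries, against 0.0248, 0.0219 and 0.0182 in control libraries, a ratio of 0.555 and an adjusted p of 0.013 (limma). Tekt2 had 0.1928, 0.1938 and 0.2291 in N40K libraries, against 0.3646, 0.2674 and 0.3927 in control libraries (ratio 0.601, adjusted p = 0.0306). Tekt5, known from sperm flagella, had 0.0016, 0.0010 and 0.0009 in N40K libraries, against 0.0020, 0.0021 and 0.0018 in control libraries (ratio 0.593, adjusted p = 0.0407), where 1 unit of the last decimal is 6.38% of its mean. In all 3 genes, which were called on these same scores, each N40K score was below each control score. The Tekt1 call held in each fit with 1 library left out, narrowly in the least clear of them (adjusted p = 0.0498). The Tekt2 call ended without any library other than control replicate 2 (0.0939), and the Tekt5 call without any library other than N40K replicate 1 (0.12). The Tekt5 call also ended without the trend of variance with level (0.106). By annotation Tekt2 overlaps an antisense gene, Gm12945.

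Gene structure was the property examined that the symbols did not use. Of the 52 members found by identifier in GENCODE M21, median gene length was 150456 bases for axonemal dynein, 19556 for cytoplasmic dynein, 65104 for intraflagellar transport, 30975 for Bardet-Biedl and 17721 for tektin genes. Dync2h1 spans 255944 bases with up to 90 exons, Dnahc11 spans 321062 bases with up to 82, and Tekt2 spans 3568 bases with up to 11. Across the 52 genes, which share the same 6 libraries and are not independent, the log2 change had a Spearman rho of 0.25 with gene length, and across 14914 genes of the table the rho was 0.24. By this annotation 26 members overlap another gene, among the called ones Dnahc11, Ift57, Ift88, Ift140 and Tekt2, all by antisense partners; whether the scores were counted by strand is not given in the sources used here.

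Other genes of the same pathways were read in 4 lists, of which 14.3% to 33.3% were called, beside 25.6% of all genes. Among 29 scored genes of dynactin and the dynein adaptors 6 rose and 1 fell, or 24.1%, with a median log2 change of 0.03. They include Pafah1b1, which encodes the dynein regulator Lis1 (ratio 1.31, limma adjusted p = 0.0162), its binding partner Ndel1 (1.44, 0.0127), the dynactin subunit Dctn5 (1.36, 0.0195), the centrosomal protein gene Ninl (2.07, 0.0188) and the adaptor gene Trak1 (1.56, 0.00521). After median centring 2 genes of this list rose and 7 fell, beside 9.75% and 18.4% of all genes. The calls of Pafah1b1, Ndel1 and Dctn5 then ended (adjusted p = 0.366, 0.361 and 0.249). The Pafah1b1 call also ended without control replicate 1 or 3 (highest 0.0646), the Ndel1 call without control replicate 2 or 3 (0.0535) and the Dctn5 call without N40K replicate 2 or any control library (0.0703). The Ninl call ended without N40K replicate 3 or control replicate 2 or 3 (highest 0.0691).

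Among 21 other intraflagellar transport and BBSome genes 2 rose and 1 fell, with a median log2 change of 0.07. Wdr35, the complex A subunit also called IFT121, had a mean of 0.0052 ± 0.0002 in N40K neurons and 0.00267 ± 0.000416 in control neurons (SD, n = 3 each; limma adjusted p = 0.00406). Rabl5, a small GTPase-like subunit of complex B, had 0.00523 ± 0.0011 in N40K neurons and 0.00923 ± 0.000473 in control neurons (0.0122). Ttc8, the BBSome subunit BBS8, rose 1.4-fold, a call that ended without any 1 of the 6 libraries (highest 0.107).

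Among 27 transition zone and ciliary membrane genes 7 rose and 2 fell, with a median log2 change of 0.14. Tmem67, B9d2, Nphp4 and Cc2d2a, components of the gate at the base of the cilium, rose with ratios of 1.44, 1.93, 1.68 and 1.54 (limma adjusted p = 0.00819, 0.0107, 0.0112 and 0.0129). Ahi1, another gene of this gate, fell with a ratio of 0.68 (0.0107). The Cc2d2a call ended after median centring (0.132). Quantile normalization left 3 rises and 2 falls in the list, beside 12.9% and 12% of all genes.

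Among 33 axoneme assembly and motile cilium genes 6 rose and 1 fell, with a median log2 change of 0.14. Rsph9, a radial spoke head gene, rose 2.01-fold (limma adjusted p = 0.00613), Armc4, needed to dock outer dynein arms, 2.52-fold (0.00787) and Spag1, a factor of dynein arm assembly, 1.63-fold (0.00534). Rfx3, a transcription factor of ciliary genes, rose 1.94-fold (0.019), and Spag6, of the central apparatus, fell with a ratio of 0.547 (0.0229). The Rfx3 call ended without N40K replicate 2 or any control library (highest 0.0682), and the Spag6 call without N40K replicate 1 or 3 or any control library (0.0774).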

How the data were processed

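RNA from 6 libraries of mouse cortical neurons was measured, 3 with N40K and 3 with the control vector. Libraries were stranded, from poly(A) RNA, with paired reads of 100 nt, per the labels' protocols. Per the submitters' processing notes, CASAVA, STAR, BWA and bedtools 2.16.1 were used and the build was mm9; what each tool did is not stated. Sd scores of 15705 genes were deposited by the authors; their formula, filters and depth were not given in the sources used here, and 0 value columns were left unused.

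The test was limma 3.58.1 (R 4.3.3; lmFit, eBayes with trend, 2-sided) on log2(score + 0.01) over all genes, with Benjamini-Hochberg adjustment and a threshold of 0.05; low scores change by more than this scale shows, and 26 of the 54 members have a mean score under the pseudocount. Library medians were compared by exact permutation (scipy 1.17.1). The fit was tested on simulated data of 15705 genes, with known changes in 50 genes of each size and none in 15505. It found 18% of simulated log2 changes of 0.25 and 62% of those of 0.5. For log2 changes of 1 and 2 it found 82% and 92%, and it made 3 false calls. A far smaller share of genes changed in the simulation than was called in these data, so these rates need not hold here.

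Members, classes and lists were chosen with earlier results of these data known. Genes named were all called members, uncalled members described by class, and up to 5 called genes with the smallest p in each of 4 pathway lists. Gene structure came from GENCODE M21 (GRCm38), matched by identifier for 14914 genes (95%); no coordinates are printed, since the build differs from mm9. Alternatives were other pseudocounts (0.001 and 0.1) or none, a filter on low scores, 3 scalings, the replicate block, eBayes without trend, and each library left out.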

Additional observations from a re-analysis of the deposited data

How the results depend on the processing

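The members counted as risen with scores as deposited were 11 and as fallen 4. Median centring gave 7 and 12, quantile normalization gave 10 falls, and centring on the median deviation gave 10 falls. With 1 library left out, members risen ranged from 6 to 13 and fallen from 1 to 3, cytoplasmic dynein genes risen from 1 to 3 against 2, intraflagellar transport genes risen from 1 to 4 against 4, and axonemal dynein genes risen stayed at 2. Cytoplasmic dynein genes risen were 1 under the filter without the lowest 25% of genes, median centring, quantile normalization and centring on the median deviation. Intraflagellar transport genes risen were 1 under median centring and 2 under quantile normalization and centring on the median deviation. Over all genes, rises numbered 3372 with scores as deposited, 1969 under that filter, and 1613 to 3729 with 1 library left out. With scores as deposited 39 of 54 members and 10527 of 15705 genes had a log2 change above 0. Of these 39 members, 21 turned below 0 after median centring, 15 after quantile normalization and 8 after centring on the median deviation. Those called before or after the turn were, under median centring, -0.039 for Dync1li1, -0.12 for Dync1i1, -0.035 for Ift57 and -0.10 for Ift81, and under centring on the median deviation -0.056 for Dync1i1. Median centring lowers every log2 change by 0.13 by construction; other causes were not tested.

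Same-numbered libraries did not deviate together from their group means (correlations of -0.07, 0.04 and -0.02). With 3 libraries per group this cannot show whether the numbers mark a shared culture or preparation. The replicate block gave 8 rises and 1 fall among the members, with 2 intraflagellar transport rises; the calls of Dync1i2, Tekt1 (adjusted p = 0.0561), Tekt5, Ift57, Ift140 and Bbs5 ended, and Tekt2 was the fall that passed. It gave 1770 rises and 328 falls over all genes. Without the trend of variance with level 11 members rose and 3 fell. The calls of Dync1li1, Ift57 and Tekt5 then ended (limma adjusted p = 0.0885, 0.057 and 0.106), and Dnahc17 and Dynlt1b were called as risen. Depth is unknown, and the last decimal limits low scores such as those of Dync1i1.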
